A study of Mus musculus with 4 samples.

Results

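Star miRNAs are the strands that older miRNA nomenclature marked with an asterisk, as the less abundant product of a hairpin. They were measured here through every array probe whose name began with miR- or let- and ended in an asterisk, with mismatch probes, virus probes and a block of primate-specific numbers left out. This gave 38 probes for 35 names. One probe was kept per name, the mouse-named one first (11 names), then the human-named one (16) and then the rat-named one (8), out of 785 matched miRNA probes on the array. An unstarred probe of the same miRNA was present for 34 of the 35, the exception being miR-467*. For miR-30e* that partner was the probe named for miR-30e-5p. A mouse gene of the same name was in the reference gene table for 34 of the 35, all but miR-373*.

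Each of 4 arrays held 1 RNA sample, labelled with Cy3, from mast cells. The cells were kept with or without a ligand or an inhibitor of the receptor tyrosine kinase KIT. Primary mouse mast cells derived from bone marrow (BMMC) had been cultured with interleukin 3 and SCF, or stem cell factor, which binds KIT. They were either starved of SCF or given it at 100 ng per cc for 24 h. P815, a mouse mast cell line that grows without cytokines and carries the KIT change D814V per the labels, was either left untreated or given the KIT inhibitor imatinib at 10 nM for 24 h. The sources used here do not give the strain, sex or age of the mice or the number of cultures. With 1 array per group there was no replicate error, so no test or p-value was computed, and every difference below describes a pair of arrays. Values are given in the order starved BMMC, SCF-treated BMMC, untreated P815 and imatinib-treated P815. Intensities are as deposited and unscaled, and the median matched probe read 504.0, 356.8, 251.8 and 232.2, so that only the scaled differences further on compare arrays.

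A miRNA hairpin is cut by Drosha and then by Dicer into a short duplex of 2 strands. One strand, the guide, is usually loaded into an Argonaute protein and pairs with target RNAs through its seed, bases 2 to 8. The other, the passenger or star strand, is usually degraded, but in some hairpins it is kept and is active. Strand choice is known to favour the strand with the less stable 5' end and a 5' U.

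The sequences below show what the star strands of the main results look like. A mouse mature sequence was found in RefSeq (GRCm38.p6) for 26 of the 35 star names, by taking the arm for which the asterisk stood. The array's own probe sequences were not used here, so a human-named or rat-named probe may differ from the mouse strand printed. The stem of let-7d carries the star strand on its 3' arm, and that of miR-140 likewise. In the hairpins (Mirlet7d, chr13:48536012-48536114, minus strand, and Mir140, chr8:107551244-107551313, plus strand) the star strand is in capitals, at bases 70 to 91 and 45 to 65.

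Mirlet7d: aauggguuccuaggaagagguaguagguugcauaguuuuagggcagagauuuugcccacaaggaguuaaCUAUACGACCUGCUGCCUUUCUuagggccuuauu
Mir140: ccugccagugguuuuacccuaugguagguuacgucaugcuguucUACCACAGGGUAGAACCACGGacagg

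In the mature strands the seed is in capitals. The guide let-7d-5p is set beside let-7d* because the 2 strands of this hairpin have different seeds.

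let-7d-5p: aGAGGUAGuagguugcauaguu
let-7d* (let-7d-3p): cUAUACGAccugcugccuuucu
miR-140* (miR-140-3p): uACCACAGgguagaaccacgg
miR-452* (miR-452-3p): uCAGUCUCaucugcaaagaggu
miR-200a* (miR-200a-5p): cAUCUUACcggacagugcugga

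The miR-7 hairpins are shown because the miR-7* probe gave the largest SCF difference among the star miRNAs and the name is shared by more than 1 gene. Mir7-1 (star strand at chr13:58392800-58392821, minus strand) and Mir7-2 (chr7:78888335-78888356, plus strand) give the same guide but star strands that differ at 3 of 22 positions, 1 of them in the seed, and the rat name does not tell them apart.

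miR-7a-1-3p: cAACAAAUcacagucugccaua
miR-7a-2-3p: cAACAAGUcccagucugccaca

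The star strands of the miR-18 and miR-20 hairpins, all from the miR-17 cluster or its X-linked paralog, share bases 2 to 5 with one another and with miR-191*. The star strands of miR-302b and miR-302c share a whole seed, CUUUAAC, the only seed held by more than 1 of the 26.

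miR-18a* (miR-18a-3p): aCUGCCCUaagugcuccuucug
miR-20a* (miR-20a-3p): aCUGCAUUacgagcacuuaaag
miR-20b* (miR-20b-3p): aCUGCAGUgugagcacuucuag
miR-191* (miR-191-3p): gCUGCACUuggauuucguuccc
miR-302b* (miR-302b-5p): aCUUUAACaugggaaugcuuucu
miR-302c* (miR-302c-5p): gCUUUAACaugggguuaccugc

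The first base and the base composition of the strands were then counted. Of the 26 star strands, 5 began with U, against 12 of the 24 other arms found in the same table. The median GC content was 50% (range 36.4 to 57.1%) in the 12 star strands whose probe was listed on at least 1 array and 40.9% (28.6 to 50%) in the 14 listed on none. For the other arms the median was 44.5% whether the unstarred probe was listed (18) or not (6). These are counts over few strands, and mouse sequence stands in for the probes.

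The first question was how many star strands gave a signal above background. The authors listed a probe where its intensity reached 1.5 times the median mismatch probe of its array, that is 443.6, 415.9, 304.5 and 270.0. Probes marked 2mut in the files are taken here as mismatch controls, which measure unspecific binding. The labels do not describe how they differ from the matched probes, and every reading against a mismatch probe below depends on that assumption. Of the 35 star miRNAs, the authors' list held 15 (42.9%) in starved BMMC, 10 (28.6%) in SCF-treated BMMC, 5 (14.3%) in untreated P815 and 9 (25.7%) in imatinib-treated P815. For the 34 unstarred partners the numbers were 23, 15, 13 and 14 (67.6%, 44.1%, 38.2% and 41.2%). The star miRNAs thus had the lower share on every array.

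Probes for miRNAs of viruses and a worm give a background for these shares. They were listed at 56.1%, 32.7%, 29.9% and 36.4% of 107 probes in the same order, a larger share than that of the star miRNAs on each array. The 10 star probes of the primate-specific cluster, which has no mouse counterpart, were listed 7, 4, 2 and 2 times. Listing alone therefore did not set the star probes apart from probes made for other organisms.

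Listing was set side by side within each hairpin. The unstarred probe was listed on more arrays than the star probe for 16 of 34 miRNAs, the star probe on more arrays for 7, and for 7 neither probe was listed anywhere. Of the 12 miRNAs whose unstarred probe was listed on all 4 arrays, 3 also had the star probe listed on all 4, namely miR-452, miR-7 and miR-191. For miR-20a, miR-20b, miR-29c and miR-202 the unstarred probe was listed on all 4 arrays and the star probe on none. The 7 with the star probe listed more often were miR-140, miR-200a, miR-363, miR-373, miR-450b, miR-488 and miR-501. For miR-151 and miR-488 the starred and unstarred probes may not be opposite arms, since the naming of these arms is not settled here.

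By family, listing was uneven. Of the 5 star miRNAs of the Dlk1-Dio3 imprinted cluster, a large group of maternally expressed miRNAs, only miR-432* was listed, and only in BMMC without SCF. Of the 4 from the miR-17 cluster and its paralogs, which promote proliferation, miR-18a* was listed on 3 arrays and miR-363* on 1. Of the 9 tissue-restricted star miRNAs, 2 were listed anywhere, miR-200a*, from a family typical of epithelium, and miR-488*. Those of miR-1 and miR-133a (muscle), miR-9 (neural tissue) and miR-199a (mesenchyme) were listed on no array. In all, 18 of the 35 were listed on no array, with intensities of 187.8 to 433.2 in BMMC without SCF (median 331.1) and of 122.8 to 247.0 in P815 with imatinib (median 167.6).

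The cell labels were checked on unstarred probes. Of 6 miRNAs typical of blood or mast cells, all were listed on both BMMC arrays and 4 on both P815 arrays, with miR-223 and miR-142-3p not listed in P815. Of 14 miRNAs typical of other tissues, 5, 2, 4 and 2 were listed in the order above, miR-122a (liver) and miR-206 (muscle) on all 4. The part of unspecific binding in these was not tested.

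The kept star probes at 2 times or more their own mismatch probe on both BMMC arrays are described next, with intensities in the same order of arrays. miR-140*, from a hairpin in an intron of Wwp2 that is known for its role in cartilage, read 4939.2, 4066.0, 658.0 and 1185.5. It was listed on all 4 arrays, whereas the unstarred miR-140 probe (534.2, 374.5, 231.8 and 205.2) was listed only in BMMC without SCF. Its intensity was 12.11, 10.22, 2.91 and 4.74 times that of its own mismatch probe, at 2 times or more on every array, as was no other of the 23 kept star probes with a mismatch probe. A second, rat-named miR-140* probe read 4869.8, 4004.2, 640.5 and 1245.5, close to the mouse-named one on each array.

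let-7d*, the 3' strand of a let-7 hairpin whose guide restrains growth and is abundant in differentiated cells, read 1986.5, 1052.0, 294.8 and 1330.5. It was listed everywhere except in P815 without imatinib. Its mismatch probe read 700.0, 466.5, 245.0 and 741.0, so it was high and low on the same arrays as the matched probe. The matched let-7d* probe stood at 2.84, 2.26, 1.2 and 1.8 times its mismatch probe, below 2 times on both P815 arrays. miR-373*, a human-named probe with no mouse gene of that name, read 1412.8, 927.8, 297.5 and 664.8, and its mismatch probe 346.0, 307.5, 182.0 and 269.5. It too was listed everywhere except in P815 without imatinib. miR-200a* read 816.2, 596.0, 283.0 and 353.0 with mismatch values of 243.0, 254.5, 178.0 and 149.0, and was missing from the same list.

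For other star miRNAs the mismatch probe was as bright as the matched one. miR-191*, the minor strand of a miRNA abundant in blood cells, read 1036.2, 1004.5, 325.0 and 318.2 against mismatch values of 947.5, 986.0, 338.0 and 463.5. miR-452* read 911.0, 778.5, 732.5 and 410.5, below its mismatch probe (1050.0, 875.0, 951.0 and 497.5) on every array. miR-18a* read 516.8, 449.2, 198.2 and 367.8 against 502.5, 479.0, 161.0 and 486.5. On no array did the matched probe of these 3 exceed 1.23 times its mismatch probe. They were listed all the same, miR-191* and miR-452* on all 4 arrays.

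Over all listed star miRNAs that had a mismatch probe, 5 of 9, 4 of 7, 1 of 4 and 3 of 8 reached 2 times its intensity on the arrays in the usual order. Among listed unstarred miRNAs the same share was 57.1%, 66.5%, 44.6% and 52.7%. Of the 35 star miRNAs, 23 had a mismatch probe. miR-7*, miR-22* and miR-501* had none.

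The miR-302 star strands depended on the probe. miR-302b and miR-302c belong to a cluster typical of pluripotent cells. The mouse-named miR-302b* probe read 317.0, 270.5, 199.5 and 182.8 and was listed on no array, while the human-named one read 1058.0, 1064.2, 393.5 and 527.2 and was listed on all 4, at 5.03, 5.82, 2.42 and 3.11 times its own mismatch probe. The mouse-named miR-302c* probe (450.0, 301.2, 247.2 and 236.5) was listed only in BMMC without SCF, and the human-named one (841.0, 463.2, 266.8 and 287.0) on 3 arrays. That human-named miR-302c* probe stood at 2.15, 1.34, 0.87 and 0.81 times its own mismatch probe. Both strands were thus listed on more arrays through the human-named probe than through the mouse-named one. For miR-30e* the mouse-named probe and a human-named miR-30e-3p probe were both listed on no array.

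For comparisons between arrays, intensities were corrected for background, put on a log2 scale and quantile normalized. Differences of at least 2-fold were counted among star miRNAs listed on at least 1 of the 2 arrays. Where only 1 array listed the miRNA, the difference is open-ended and a bound is given as "at least". For this bound the unlisted side was raised to the lowest level listed on its array, or kept at the miRNA's own level where that was higher. Where 1 miRNA had probes named for several species, their log2 differences lay a median of 0.16 (SCF), 0.19 (imatinib) and 0.18 (P815 against BMMC) from each other, and 95% of these gaps were within 0.59, 1.07 and 1.03.

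With SCF, 1 star miRNA of 15 reached 2-fold upward and 0 downward, against 2.1% and 0.0% of all 333 listed miRNAs. It was miR-7*, 2.33-fold higher (log2 difference 1.22), which read 785.0 without SCF and 1181.8 with it. It was the only one of the 35 star probes whose intensity was higher with SCF before any scaling, a direction seen for 4.28% of the unstarred probes. The unstarred miR-7 probe, the guide of a hairpin known from neuroendocrine cells, read 520.5 and 452.2 and differed by 0.37.

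The other 14 lay between -0.49 and 0.53 on the log2 scale, with a median over all 15 of 0.03, against -0.04 over all listed miRNAs. let-7d* had the lowest value (-0.49) and let-7d 0.20. miR-191* (0.53, with its mismatch probe at 0.58), miR-18a* (0.37) and miR-452* (0.24) followed miR-7*, all 3 with bright mismatch probes. miR-140* differed by 0.18, miR-22* by 0.17, miR-200a* by 0.06, miR-501* by -0.08 and miR-373* by -0.18. The remaining 5, miR-432*, miR-450b*, miR-302c*, miR-488* and miR-151*, were listed in starved BMMC only. Their fitted values of 0.03, -0.12, -0.09, -0.02 and -0.01 are set against a probe not above the listing limit, no bound could be given, and their direction is not known. The SD of the differences was 0.39 for the star miRNAs and 0.31 for the virus and worm probes, of which 1.67% were 2-fold higher. Before scaling the SCF array's median matched probe differed by -0.63 on the log2 scale, and these differences are relative to that shift. The median mismatch probe read 295.75 without SCF and 277.25 with it, against 504.0 and 356.8 for the median matched probe. Scaling was set on matched probes, and most star mismatch probes then had positive differences with SCF. Without scaling miR-7* differed by 0.68, no star miRNA reached 2-fold, and miR-191* (-0.03), miR-18a* (-0.21), miR-452* (-0.23), miR-140* (-0.28) and miR-200a* (-0.50) turned negative.

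With imatinib the star miRNAs differed more. Of 10 listed, 3 lay 2-fold or more above and 2 as far below, against 11.6% and 7.02% of all 242 listed miRNAs and 12.2% and 0.0% of the virus and worm probes. The 3 higher were let-7d* (at least 4.49-fold), miR-18a* (at least 1.23-fold) and miR-373* (at least 2.1-fold), none of them listed without imatinib. miR-373* is read by a human-named probe without a mouse gene of that name, and what it bound was not tested. The 2 lower were miR-452* (2.62-fold) and miR-363* (at least 1.94-fold, not listed with imatinib). At their bounds, 2 were 2-fold higher and 1 was 2-fold lower.

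For all 5 the mismatch probe differed in the same direction as the matched one. For let-7d* the matched probe read 294.8 without and 1330.5 with imatinib, and its log2 difference of 2.27 stood beside 1.82 for the mismatch probe. miR-18a* differed by 1.48 and its mismatch probe by 2.40. The values were 1.13 and 1.18 for miR-373*, and -1.39 and -1.67 for miR-452*. For miR-363*, a strand of the X-linked paralog of the miR-17 cluster, which read 368.8 without and 172.0 with imatinib, the matched probe differed by -1.90 and the mismatch probe by -0.31. The part of unspecific binding in these differences was not tested.

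Of the other 5, the 3 listed on both arrays, miR-7*, miR-140* and miR-191*, differed by less than 2-fold. miR-7* read 339.0 and 593.5 and differed by 0.48. With median centring and without scaling, miR-7* differed by 1.06 and 1.04, past 2-fold, and miR-140* by 0.98 and 0.96. miR-200a* and miR-302a* were listed only with imatinib, so their differences are open-ended. miR-200a* was at least 1.18-fold higher (fitted value 0.46), and no bound could be given for miR-302a* (fitted value 0.44). miR-140* differed by 0.28, read 658.0 and 1185.5, and its rat-named probe differed by 0.41. Their mismatch probes differed by 0.46 for miR-140*, -0.05 for miR-200a* and 1.14 for miR-302a*. miR-191* lay at -0.22, and at 0.08 with median centring and 0.06 without scaling. The median over the 10 was 0.45, and it was 0.03 over the 4 listed on both arrays, while it was -0.04 over all listed miRNAs. A strand listed only with imatinib tends to a positive difference by the way it was selected, and 5 of the 10 were so listed, against 1 listed only without.

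P815 was then set against BMMC with KIT taken to be active in both, that is without imatinib and with SCF. Cell type, culture and array cannot be told apart in this pair. Of 11 listed star miRNAs, 4 were 2-fold or more lower in P815 and 2 as much higher, against 27.5% and 17.1% of all 251 listed miRNAs and 15.0% and 12.5% of the virus and worm probes. The 4 lower were miR-140* (2.55-fold, 658.0 against 4066.0), let-7d* (at least 2.22-fold), miR-373* (at least 1.91-fold, its difference on the 2-fold threshold) and miR-18a* (log2 difference -1.06), which has no bound. The mismatch probes of the last 3 differed by -0.54, -0.62 and -1.76. For miR-373* there is again no mouse gene of that name. The rat-named miR-140* probe was 2.56-fold lower, and the miR-140* mismatch probe differed by -0.45 against -1.35. The 2 higher were miR-363* (at least 1.96-fold, not listed in BMMC with SCF) and miR-452* (2.28-fold, its mismatch probe at 1.49 against 1.19). Without scaling miR-452* differed by -0.06.

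Of the other 5, miR-7* and miR-191* were listed on both arrays and differed by less than 2-fold, at -0.97 and -0.85. Under 7 other settings of scaling or background, miR-7* was past 2-fold in 5 and miR-191* in 4. The miR-191* mismatch probe differed by -0.64. The other 3 were not listed in P815, so their differences are open-ended. miR-200a* was at least 1.21-fold lower and miR-501* at least 1.06-fold lower (fitted values -0.51 and -0.61), and no bound could be given for miR-22* (fitted value -0.86). The median over the 11 was -0.86, against 0.00 over all listed miRNAs and 0.52 over virus and worm probes. Of these 11, 6 were listed only in BMMC, which favours a negative difference. Over the 4 listed on both arrays the median was -0.91. Before scaling the median matched probe differed by -0.47, and 2 of the 35 star probes, miR-363* and miR-133a*, had the higher intensity in P815, a direction seen in 4.07% of the unstarred probes. This pair shares its arrays with the SCF and imatinib comparisons.

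Differences of the 2 strands of a hairpin were set side by side where each strand was listed on 1 or both arrays. Fitted values enter these counts also where only 1 array listed the strand, and 1 of the SCF pairs is miR-151, whose arms are in doubt. With SCF, 6 of 13 pairs had the same sign, and the median absolute gap between star and unstarred differences was 0.20, close to the gap between probes of 1 miRNA. With imatinib, 3 of 6 had the same sign and the median absolute gap was 1.01. For P815 against BMMC, 3 of 6 had the same sign and the gap was 0.74. Pearson's r across these pairs, which share arrays and depth of signal, was 0.15, 0.20 and 0.26. The array also had 18 miRNAs with probes named for both arms, of which 6, 3 and 3 had both arms listed, and their median absolute gaps were 0.15, 0.31 and 0.92.

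The pairs differed in how the strands went. For let-7d both strands were higher with imatinib (at least 4.49-fold for the star, 1.55-fold for the guide) and both lower in P815 than in BMMC (at least 2.22-fold and 2.65-fold). The let-7d* mismatch probe differed by 1.82 and -0.54 in these comparisons, against 2.27 and -1.26 for the matched one. The probes of miR-18a parted: with imatinib miR-18a* was at least 1.23-fold higher and miR-18a 1.64-fold lower. The miR-18a* mismatch probe differed by 2.40, against 1.48 for the matched one, and was the brighter with imatinib (486.5 against 367.8). The part of unspecific binding was not tested. Against BMMC miR-18a was 1.75-fold higher in P815 after scaling, while its unscaled intensity was the lower there (454.8 against 608.5). miR-7 parted as well, with miR-7* 1.96-fold lower and miR-7 2.95-fold higher in P815 than in BMMC. Unscaled, miR-7* read 339.0 in P815 against 1181.8, and miR-7 570.2 against 452.2. The miR-7* probe is rat-named and had no mismatch probe. For miR-191 the star strand differed by -0.85, its mismatch probe by -0.64 and the guide by 0.00 after scaling. Before scaling both strands read lower in P815, miR-191* at 325.0 against 1004.5 and miR-191 at 1318.2 against 4321.2. Whether the 2 strands of miR-191 parted is thus not settled here. miR-22 differed by -1.5, and miR-22* was not listed in P815. miR-452* and miR-452 were both higher after scaling, at 1.19 and 0.63. The unscaled intensity of miR-452 was lower in P815 (452.5 against 687.2). The miR-452* mismatch probe was brighter than the matched one on both arrays and differed by 1.49. Without scaling miR-452* differed by -0.06.

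KIT is called active here from the treatments alone, since no readout of it was used. Whether imatinib inhibited KIT in P815 was not tested. Of 8 star miRNAs listed in both systems, 4 had the same sign with KIT active in BMMC and in P815, against 50.9% of 224 unstarred miRNAs. The count was 3 of 8 with median centring and 6 of 8 without scaling, where the unstarred shares were 52.2% and 69.2%. let-7d* was lower with SCF (-0.49) and higher with imatinib, and miR-373* likewise by -0.18 and 1.13. miR-452* (0.24 with SCF and -1.39 with imatinib) and miR-191* (0.53 and -0.22) went the other way. The matched probes of miR-452*, miR-191* and miR-18a* did not exceed 1.23 times their mismatch probes on any array. miR-7*, miR-18a*, miR-140* and miR-200a* had opposite signs in the 2 systems. Of these signs, those of miR-18a*, miR-140*, miR-200a*, miR-191* and miR-452* with SCF, and that of miR-191* with imatinib, turn under the settings named above.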

How the data were processed

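Per the labels' protocols, total RNA was labelled with Cy3 by RNA ligase, 1 sample per array. Per the file headers, the deposited array tables hold 1 mean intensity per probe, from foreground medians on a linear scale. Array maker, scanner and software: not given in the sources used here. The authors' processed table holds intensity minus the array's median mismatch probe, blank below 1.5 times it. This description, worked out from the values, held for each of 802 entries per array, with 2 arrays further multiplied (SCF-treated BMMC by 0.834, imatinib-treated P815 by 0.628). No value column was left unused (0). Probe brightness limits the precision, and the number of arrays (1 per group) leaves no error.

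Normexp background correction (limma 3.58.1, R 4.3.3, offset 50) was run on all probes, and log2 values were quantile normalized over the 4 arrays on matched miRNA probes. Mismatch probes stayed out of the normalization. Their differences came from placing their intensities on each array's map from intensity to normalized value. The steps were tested on simulated arrays. The offset shrinks differences of dim probes. Comparisons were counted at 2-fold. Named per comparison were all star miRNAs past 2-fold, the 10 highest and 10 lowest others among those listed on either array, those listed on all 4 arrays and those listed on both arrays of 1 cell type and neither of the other, each with its unstarred probe. Members and lists were chosen with earlier results of these data known. Alternatives of scaling, background, detection and probe choice were tried. Mature and hairpin sequences and gene names are from RefSeq (GRCm38.p6).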

Additional observations from a re-analysis of the deposited data

Results flagged for a closer look

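3 star miRNAs had opposite differences with KIT active in the 2 systems, each larger than the median gap between probes of 1 miRNA. On the log2 scale, miR-18a* was higher with SCF by 0.37 and higher with imatinib by 1.48. miR-7* was higher with SCF by 1.22 and with imatinib by 0.48. miR-140* was higher with SCF by 0.18 and with imatinib by 0.28. In the same 2 comparisons the mismatch probe of miR-18a* differed by 0.53 and 2.40 and that of miR-140* by 0.54 and 0.46. Most star mismatch probes had positive scaled differences with SCF. Before scaling these 2 mismatch probes read lower with SCF, at 479.0 against 502.5 and at 398.0 against 408.0. miR-7* had no mismatch probe. The direction with SCF turned for 2 of the 3: miR-18a* lay at -0.21 with no scaling and at -0.62 by the authors' own values, and miR-140* at -0.28 and -0.56. miR-7* stayed positive there, at 0.68 and 0.62. miR-18a* was not listed in P815 without imatinib, so its imatinib difference is open-ended. That difference was 0.29 at its bound and 0.22 by the authors' own values. The difference between the systems was not tested, with 1 array per group. Groups of 1 array allow no search for outlying samples.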

How the results depend on the processing

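No paired analysis was possible because each group has 1 array, and no replicate could be left out. The authors' processed values were not used for P815 against BMMC because the cell types were scaled separately. The cause of the changes below was not tested. With SCF the 1 higher star miRNA was 0 without scaling, in the authors' processed values and among members at 2 times their own mismatch probe (a setting chosen after seeing the data). The 0 lower became 3 in the authors' values. The median turned to -0.07 with 75th percentile scaling, -0.60 without scaling and -0.62 in the authors' values. Pairs with the same sign numbered 11 without scaling and 3 with background subtraction, and the median star minus unstarred difference of 0.17 turned to -0.03 with human-named probes first.

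With imatinib the 3 higher became 1 with 75th percentile scaling, 0 when listed on both arrays and 1 at 2 times the own mismatch. The 2 lower became 1 with median centring, without scaling, when listed on both arrays and at the bounds, and 0 at 2 times the own mismatch. The median of 0.45 was 0.76 with median centring, 0.74 without scaling, 0.22 in the authors' values, 0.03 when listed on both arrays and -0.09 with no detection filter. The median star minus unstarred difference of 0.91 was 0.58 with cyclic loess and 1.24 with background subtraction.

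For P815 against BMMC the 2 higher became 1 with median centring, cyclic loess, quantiles taken per cell type, listing on both arrays and bounds, and 0 without scaling and at 2 times the own mismatch. The 4 lower became 9 without scaling and with normalization within each cell type, which leaves the cell types unscaled, 2 with no background correction and at the bounds, and 1 with 75th percentile scaling and when listed on both arrays. The median was -0.38 with 75th percentile scaling, -1.93 within each cell type, -1.58 without scaling, -0.02 with no detection filter and -1.13 at 2 times the own mismatch. miR-452* turned to -0.06 without scaling. Pairs with the same sign numbered 5 without scaling. The median star minus unstarred difference of -0.35 was 0.24 with median centring, 75th percentile scaling and no scaling, 0.20 within each cell type and -0.80 with background subtraction.

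Detection in BMMC without SCF was 9 at 2 times the median mismatch probe, 4 above the 95th percentile of mismatch probes and 5 at 2 times the own mismatch. It was 5 and 4 by the last 2 rules in BMMC with SCF, 2, 2 and 1 by the 3 rules in P815 without imatinib, and 2 and 3 by the last 2 in P815 with imatinib.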
